A study of Mus musculus with 33 samples.

Results

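The regions described here are stretches of the mouse genome that were labelled KOD both in embryonic stem cells (mES cells) and in embryonic forebrain, and open in embryonic heart. They were chosen by those labels: every 10 kb bin on chromosomes 1 to 19 that stood in the KOD lists of mES cells and forebrain and in the open list of heart was taken, and adjacent bins were joined. The rule found 469 regions made of 1349 bins (13.49 Mb), out of 33911 stretches of constant state that cover 2400.77 Mb in all. The member bins were 5.9% of the 22878 bins that were KOD in mES cells and forebrain. The states of all 3 sources were used by the rule, so they are given below as a description, without tests.

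The data came from CUT&RUN, in which an antibody guides a nuclease to its target in permeabilised cells and the released DNA is sequenced. In each of 3 sources there were 3 libraries for dimethylated lysine 9 of histone H3 (H3K9me2) and 3 for Lamin B1, with 6 IgG control libraries for heart, 6 for forebrain and 3 for mES cells, 33 in all. The mES cells are a C57BL/6 line kept in LIF + 2i medium, and whole hearts and right forebrain lobes were taken from E11.5 embryos of wild-type C57BL/6 mice. The 3 biological replicates of a source were separate culture vessels or separate pools of litters. No group carried a mutation or a drug treatment, apart from the 2i inhibitors in the mES medium. The depositors gave 3 lists per source, of lamina-associated domains (LADs), of KODs (a label that the sources used here do not spell out) and of open domains. Each list pools the replicates of its source, so a region has 1 state per source, no replicate error and no known depth. A whole heart or forebrain holds several cell types, so a change of state in all cells and in part of the cells cannot be told apart.

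H3K9me2 is placed mainly by the methyltransferases G9a and GLP over broad stretches of chromatin that are mostly silent. Much of it lies at the nuclear periphery, where the lamina, a mesh that includes Lamin B1, contacts chromatin in LADs. Cell types differ in which lineage genes lie in such domains, and in the embryonic heart the contractile genes are among the best known examples of genes switched on with the lineage. RNA was not among the measurements analysed here, so the word open refers only to the label of a domain and not to transcription.

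The regions held 30 of the 1136 annotated miRNA genes (2.64%) by their midpoints, while they held 0.562% of all bins. These 30 lay in 8 regions, and 20 of them lay in the single region of chromosome 12 that also holds Dlk1, Rtl1 and Meg3, so they are not independent of each other. The miRNAs below were chosen after their positions were seen, to show the sets that share a region. Mature sequences are those of RefSeq (GRCm38.p6), which had entries for 28 of the 30 genes, and capitals mark the seed (bases 2 to 8), the part of a miRNA that pairs with its targets. The first 3 come from the miR-200b, miR-200a and miR-429 genes in a region of 100 kb on chromosome 4, between 156053905 and 156055750. The next pair come from let-7c-2 and let-7b in a region of 20 kb on chromosome 15, and the last 3 from the region on chromosome 12.
mmu-miR-200b-3p: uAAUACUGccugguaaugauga
mmu-miR-429-3p: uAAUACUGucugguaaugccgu
mmu-miR-200a-3p: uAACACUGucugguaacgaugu
mmu-let-7b-5p: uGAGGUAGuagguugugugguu
mmu-let-7c-5p: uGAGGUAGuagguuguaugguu
mmu-miR-127-3p: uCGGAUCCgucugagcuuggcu
mmu-miR-370-3p: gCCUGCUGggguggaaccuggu
mmu-miR-433-3p: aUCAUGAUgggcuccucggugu

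The 28 genes gave 53 mature sequences with 47 distinct seeds. miR-200b-3p and miR-429-3p shared the seed AAUACUG, and the seed AACACUG of miR-200a-3p was a separate one. let-7b-5p and let-7c-5p shared GAGGUAG, the seed of the let-7 family. The miR-200 family is best known for restraining the change from epithelial to mesenchymal cells, and let-7 for its rise as embryonic cells differentiate. The miRNAs of chromosome 12, such as miR-127, miR-370 and miR-433, belong to the imprinted Dlk1 to Dio3 domain, where maternal non-coding RNAs and paternal protein-coding genes are expressed from opposite chromosomes. Mir124a-3, one of the genes for a miRNA typical of neurons, also lay in a region, of 160 kb on chromosome 2.

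Of the genes of contraction, Myh6, the alpha heavy chain of cardiac myosin, and Tnnt2, cardiac troponin T, had their RefSeq start site and the largest part of their body in the regions. Their promoters are shown because the start itself lay in member bins. Each sequence is the 250 bases before the start in the RefSeq table (GRCm38.p6), 5′ to 3′ on the gene's strand. The Myh6 window is chr14:54966608-54966857 on the minus strand, inside the annotated span of the gene, which has a transcript that begins further upstream. The Tnnt2 window is chr1:135836084-135836333 on the plus strand. Capitals mark matches, on either strand, to 2 of the motifs searched, the GATA motif AGATAA and the MCAT motif CATTCC.
Myh6: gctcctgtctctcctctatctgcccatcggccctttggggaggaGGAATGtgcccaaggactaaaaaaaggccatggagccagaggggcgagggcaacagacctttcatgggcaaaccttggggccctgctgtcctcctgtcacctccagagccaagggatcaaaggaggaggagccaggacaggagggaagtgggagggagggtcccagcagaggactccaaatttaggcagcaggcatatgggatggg
Tnnt2: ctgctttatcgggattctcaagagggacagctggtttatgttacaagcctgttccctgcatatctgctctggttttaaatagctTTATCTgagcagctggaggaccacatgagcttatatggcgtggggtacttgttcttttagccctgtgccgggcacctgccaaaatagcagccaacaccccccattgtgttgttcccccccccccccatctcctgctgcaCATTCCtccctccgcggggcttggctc

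MCAT elements bind TEAD factors, and GATA motifs bind the GATA family, both of which are known regulators of cardiac genes. In the Myh6 window the MCAT match lay 206 to 201 bases before the start. In the Tnnt2 window the GATA match lay 166 to 161 bases and the MCAT match 27 to 22 bases before the start. The MCAT motif occurred in 2303 (11.47%) and the GATA motif in 1751 (8.72%) of all 20078 promoter windows of the same length, so single matches of this kind are common. The E-box CANNTG, present in 62.6% of windows, occurred at 1 place in the Myh6 window and 4 in the Tnnt2 window. Among the 126 promoter windows with a start in the regions, 15.1% held the MCAT motif, 5.56% the GATA motif, 6.35% the NKX motif TNAAGTG (9.46% of all windows) and 71.4% the E-box. A match describes the letters of the window and says nothing about binding. A comparison of base composition was void, because fewer than 80% of protein-coding genes had a promoter entry (79.6%). The motif shares rest on the same entries and carry the same limit, so no conclusion is drawn from their differences.

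At the cardiac myosin locus on chromosome 14, the states alternated over short distances. Both myosin genes, Myh6 and its neighbour Myh7 (the beta heavy chain), lay wholly in a KOD of 110 kb in mES cells and wholly in an open domain of 150 kb in heart. In forebrain a KOD of 20 kb covered 69.0% of the Myh6 body, and the next 20 kb, with most of Myh7, were open. A second forebrain KOD of 30 kb began at 54990001 and covered 19.3% of the Myh7 body, including its RefSeq start. The member regions here were 54950001 to 54970000 (20 kb) and 54990001 to 55000000 (10 kb).

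Tnnt2 on chromosome 1 lay in a region of 30 kb, from 135820001 to 135850000. All of its body was KOD in mES cells and in forebrain, and 85.8% was open in heart, where the open domain of 510 kb ended inside the gene. Its neighbour Tnni1, slow skeletal troponin I, which is made in the embryonic heart, was open over its whole body in heart, but only 35.8% of it was KOD in forebrain, so it overlapped a region of 10 kb and was not assigned to the regions. These loci are short, and that limits them: with 20 kb trimmed from the ends of every domain neither Myh6 nor Tnnt2 was still assigned, and with domains under 100 kb left out Tnnt2 remained and Myh6 did not.

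**Figure D1:**
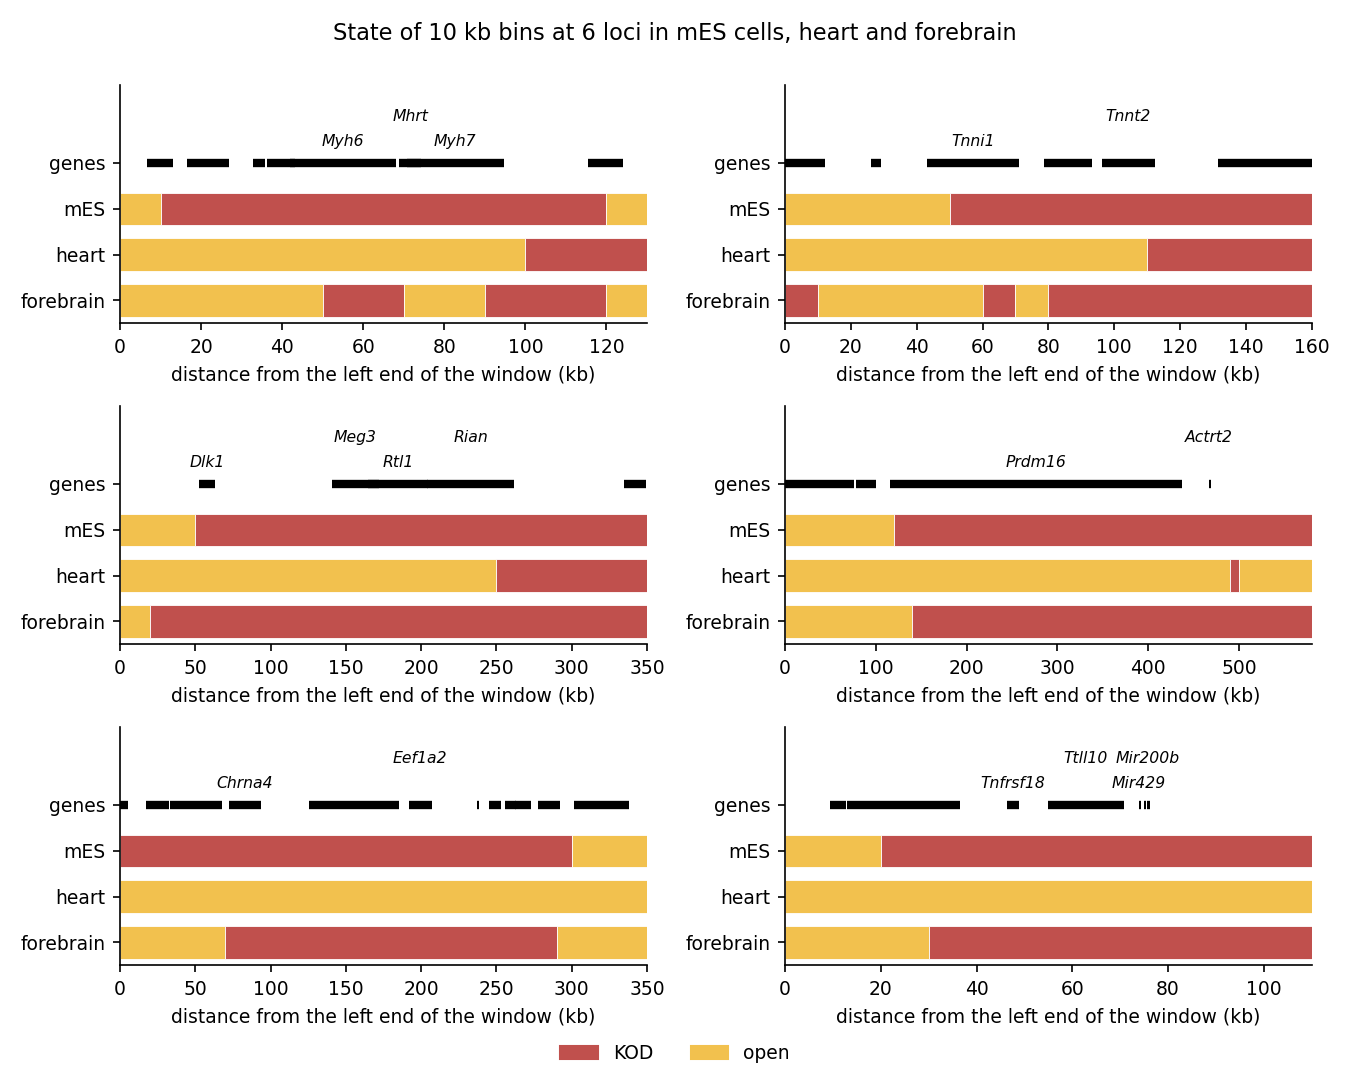
State of each 10 kb bin (red, KOD; yellow, open) in mES cells, heart and forebrain at 6 loci, against distance in kb from the left end of each window, with gene bodies as black bars. A region is where mES cells and forebrain are red and heart is yellow, such as the 200 kb at Dlk1 to Rian and the 350 kb at Prdm16; at Myh6 the forebrain KOD is only 20 kb long.

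Of the 20665 protein-coding genes on chromosomes 1 to 19, 107 were assigned to the regions (0.518%), which means that the combination of states at the regions covered a larger part of the gene body than any other combination. Of those 107 genes, 54 lay wholly inside. Any overlap at all was found for 278 genes (1.35%). By the same assignment 1423 genes were KOD in mES cells and forebrain. In heart 1252 of these were KOD, 107 open (7.52%), 51 LAD and 13 in no list. Of the 469 regions, 181 (38.6%) overlapped no protein-coding gene and 95 had an assigned gene.

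The list of 49 contractile and conduction genes had 3 members that were KOD in mES cells and forebrain, of which Myh6 and Tnnt2 were open in heart and 1 was KOD there. Against the 7.52% of all genes of this kind, 2 of 3 is a count too small to compare. Myh7 and Tnni1 overlapped the regions without being assigned. Outside the list, and chosen after their values were seen, Tmod1, which caps the actin filaments of the sarcomere, had 77.8% of its body in a region of 60 kb, and Mical2, an enzyme that oxidises actin, had 96.8% of its body in a region of 130 kb. Mical2 was also named by the rule for genes with the most bases in the regions. Mical2 was still assigned with 20 kb trimmed from domain ends and with domains under 100 kb left out, and Tmod1 was assigned under neither.

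Of 48 cardiac transcription factors and signals, Irx5, a homeobox factor of the heart and eye, was assigned, with 60.2% of its body in a region of 10 kb that was a whole mES KOD. Prox1 had 1.57% of its body in a region. Of the 6 genes of this list that were KOD in mES cells and forebrain, 5 were KOD in heart and Irx5 was open. Among 37 endothelial and endocardial genes, Flt1, a receptor for VEGF, was assigned, with 54.6% of its body in a region of 90 kb. Gja4, the connexin of arterial endothelium, lay wholly inside a region of 30 kb, and Casz1, a zinc finger factor of the heart and vessels, had 50.2% of its body in a region of 110 kb. Both were chosen after their values were seen. None of 30 genes of epicardium, smooth muscle and pericytes and none of 28 blood genes touched the regions. Over all genes 0.518% were assigned and 1.35% overlapped, so 0 or 1 gene in lists of this size is near the background. Irx5, Flt1 and Gja4 were not assigned with 20 kb trimmed from domain ends or with domains under 100 kb left out, and Casz1 was assigned under both settings.

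Genes of other lineages were also present. Myod1, the master regulator of skeletal muscle, lay wholly inside a region of 30 kb on chromosome 7, in bins open in heart. It was the single assigned gene among 35 of neural crest, mesenchyme and skeletal muscle. Of the 8 genes of that list that were KOD in mES cells and forebrain, the other 7 were KOD in heart. Pax7, a factor of muscle stem cells and neural crest, had 31.1% of its body in a region of 30 kb, and was KOD over its whole body in forebrain. Maf, a transcription factor of the eye lens and several blood lineages, lay wholly inside a region of 100 kb on chromosome 8 that was a whole heart open domain. Maf was chosen after its values were seen. Under trimming, and likewise without domains under 100 kb, Maf was still assigned and Myod1 was not.

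None of 67 neuronal, synaptic and axon guidance genes was assigned: the 8 of them that were KOD in mES cells and forebrain were all KOD in heart. Rbfox1, Rbfox3 and Opcml (4.48% of the list) overlapped the regions without being assigned. None of 39 forebrain transcription factors touched a region. Over all genes 0.518% were assigned and 1.35% overlapped, and 7.52% of those KOD in mES cells and forebrain were open in heart. The lack of an assigned gene in these lists is therefore near the background. Outside the lists, some genes for receptors of neurons were assigned, among them Chrna4 on chromosome 2 and Grik3 and Gabrd on chromosome 4, described below. Gabrd was chosen after its values were seen.

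Of 94 genes of the Wnt, BMP, TGF-beta, Notch, FGF, hedgehog and retinoid pathways none was assigned, and 6 overlapped: Wnt3, Wnt7b and Wnt9b, which are Wnt ligands, Tcf7l2, a nuclear effector of Wnt signalling, Smad2, a transducer of TGF-beta signals, and Fgfr2, an FGF receptor. Over all genes 0.518% were assigned and 1.35% overlapped, so the lack of an assigned gene here is near the background. Ski, a repressor of TGF-beta signalling chosen after its values were seen, had 52.5% of its body in a region of 50 kb and was not assigned under trimming or without short domains. Pluripotency, liver and gut, germline, Hox, housekeeping, collagen and H3K9 methylation and lamina genes gave no assigned gene. The pluripotency, Hox, housekeeping and H3K9 methylation and lamina lists had 0 genes that were KOD in mES cells and forebrain. No gene of those lists could be assigned, whatever its state in heart. The germline list had 1 such gene, liver and gut 3 and collagen 7. Of all these lists, Esrrb, Hnf4a, Prox1 and Col23a1 overlapped a region.

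Gene families are read against all 1423 genes that were KOD in mES cells and forebrain, of which 1252 were KOD in heart and 7.52% open. All 35 keratin genes that were KOD in mES cells and forebrain were KOD in heart, as were all 11 such Cyp2, Cyp3 and Cyp4 genes and all 20 such interleukin, chemokine and interferon genes. Of 65 such olfactory receptor genes, 55 were KOD, 9 LAD and 1 in no list in heart. Genes of a cluster share domains, so these counts are not independent, and most are near the share over all genes. Of 17 zinc finger genes named Zfp that were KOD in mES cells and forebrain, 4 were open in heart: Zfp536, Zfp608, Zfp607a and Zfp11, with 49.1%, 38.3%, 54.2% and 100% of their bodies in the regions. Zfp608 counts here only by its largest combination of states, as 49.7% of its body was KOD and 50.3% open in mES cells. Of the 4 genes, Zfp536 was assigned under trimming and without short domains and the other 3 under neither. Of 27 such solute carrier genes Slc13a5, a citrate transporter, and Slc2a10, a glucose transporter, were open in heart, and of 5 such calcium channel genes Cacna1h, a T-type channel. Neither setting kept Slc13a5, Slc2a10 or Cacna1h. In all, 16 of the 25 lists had no assigned gene and 10 had no overlapping gene. The 16 include the lists above with 0 genes KOD in mES cells and forebrain, where no gene could be assigned.

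**Figure D2:**
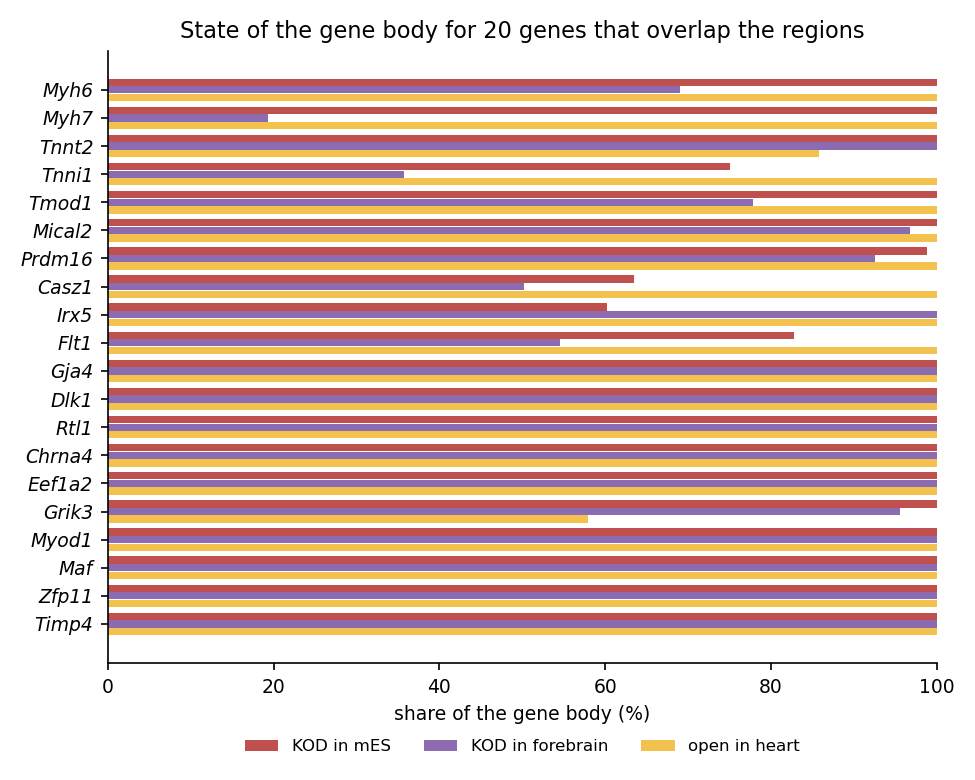
Share of the gene body (%) that was KOD in mES cells (red), KOD in forebrain (purple) and open in heart (yellow) for 20 genes named in the text, from 1 pooled list per source. Dlk1, Chrna4, Gja4, Myod1 and Maf reach 100% in all 3, while the forebrain KOD covers 69.0% of Myh6 and 19.3% of Myh7.

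The longest region was 350 kb on chromosome 4, from 154340001 to 154690000, and held 92.6% of Prdm16, a zinc finger regulator of brown fat, heart and neural progenitor cells, and all of Actrt2. It lay in a KOD of 500 kb in mES cells, an open domain of 780 kb in heart and a KOD of 600 kb in forebrain. The heart domain ended at the right edge of the region and went on beyond its left edge. Prdm16 was 100% open in heart, 98.8% KOD in mES cells and 92.6% KOD in forebrain, and both genes were still assigned after trimming.

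The second longest was 250 kb on chromosome 7, from 37630001 to 37880000, and overlapped 1 gene, Zfp536, a repressor of neuronal differentiation. Of the Zfp536 body 49.1% lay in 3 regions, 80.3% was open in heart and 6.58% was LAD there. A region of 220 kb on chromosome 12, from 112310001 to 112530000, held Tmem179 and A530016L24Rik. A region of 150 kb on chromosome 7, from 132210001 to 132360000, was at the same time a whole heart open domain and held Chst15, an enzyme of chondroitin sulfate synthesis, inside KODs of 930 kb in mES cells and 1180 kb in forebrain.

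Near the distal end of chromosome 2, 3 of the 10 longest regions lay in 1 heart open domain of 1850 kb, from 179880001 to 181730000. The region of 220 kb from 181020001 to 181240000 was a whole forebrain KOD and held Chrna4, a subunit of the nicotinic receptor, Eef1a2, the form of elongation factor 1 alpha made in heart, skeletal muscle and neurons, and also Ppdpf, Ptk6, Srms, Fndc11 and 85.8% of Helz2. The region of 160 kb from 180760001 to 180920000 was a whole mES KOD and held Bhlhe23, a factor of neural cells, Mir124a-3 and 94.3% of Ythdf1, a reader of N6-methyladenosine in RNA. The region of 140 kb from 180440001 to 180580000 held Slco4a1, an organic anion transporter, and Ntsr1, the neurotensin receptor.

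The region of 200 kb on chromosome 12, from 109450001 to 109650000, covered the imprinted cluster from Dlk1 to part of Rian. Dlk1, an inhibitor of differentiation related to Notch ligands, and Rtl1, a retrotransposon-derived gene needed in the placenta, lay wholly inside, as did the non-coding RNA Meg3 and the 20 miRNA genes. The mES KOD of 490 kb began exactly at the left edge of the region, just before Dlk1, and the heart open domain of 270 kb ended exactly at its right edge. The lists do not separate the parental chromosomes. Dlk1 was not assigned after trimming and Rtl1 was.

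Long genes were often crossed by several short regions. Grik3, a kainate receptor subunit, had 53.5% of its body in 4 regions and was not assigned under trimming or without domains under 100 kb. Of genes that were not assigned, Zbtb7c had 130 kb in 4 regions, Camta1 had 120 kb in 6, Tshz2 117 kb in 4, Npas3 110 kb in 2, and Jazf1 and Shank2 100 kb each in 3 and 4. For Npas3, a factor of neural cells, this was 13.3% of the gene, and 86.4% of it was KOD in heart.

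Most regions were short. The median length was 20 kb, the mean 28.8 kb and the longest 350 kb. A single bin made up 197 regions (42.0%) and 111 more were 20 kb long, while 19 (4.05%) were 100 kb or longer and held 22.0% of the bases. The 1286 regions of the mirror class, KOD in mES cells and heart and open in forebrain, had a median of 30 kb, and 12.1% of them were 100 kb or longer. The 1699 stretches that were KOD in all 3 sources had a median of 50 kb, and 34.9% were 100 kb or longer.

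**Figure D3:**
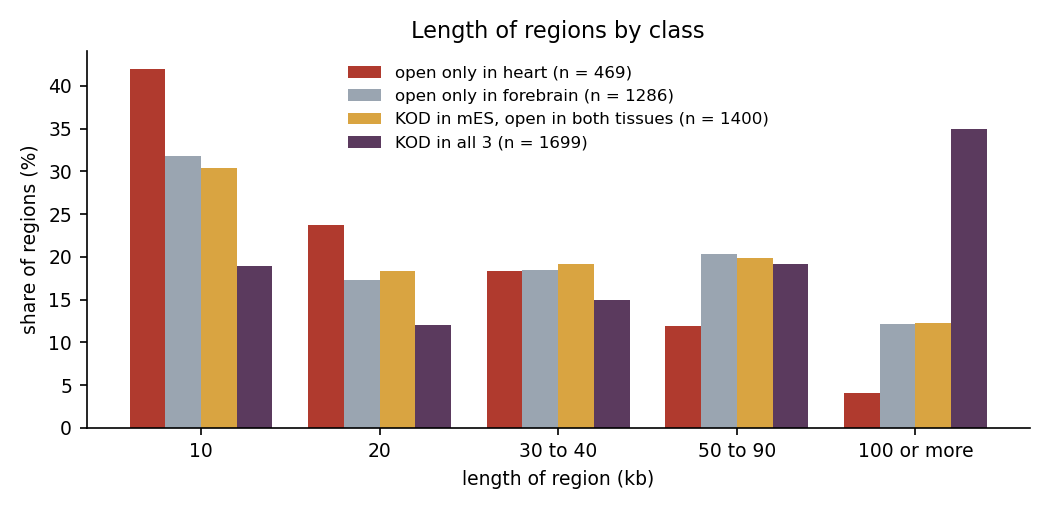
Share of regions (%) in 5 length classes (kb) for 4 classes of states, with the number of regions in the key. Single bins of 10 kb make up 42.0% of the regions open only in heart, against 31.8% of those open only in forebrain and 18.9% of stretches KOD in all 3.

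The regions were a small part of the chromatin that was KOD in mES cells and forebrain. Of 22878 such bins, 83.9% ± 2.70 were KOD in heart, 8.17% ± 1.51 LAD, 5.90% ± 1.20 open and 2.02% ± 0.323 in no list (± is a delete-one-chromosome jackknife SE, n = 19 chromosomes, here and below, which measures the spread along 1 pooled map and not between animals). In the mirror comparison, 21.3% ± 2.14 of 26676 bins KOD in mES cells and heart were open in forebrain. Over all bins, 29.8% were open in heart and 31.1% in forebrain, and 18.5% were KOD in heart and 17.2% in forebrain. The heart share was below the forebrain share on 19 of 19 chromosomes. Both comparisons share the mES lists. The sources used here do not give the thresholds of each tissue, so the calling of its domains and its chromatin cannot be told apart.

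The heart share varied among chromosomes, from 1.75% on chromosome 17 to 17.2% on chromosome 4, with a median of 3.55%. Chromosome 7 followed with 13.9% and chromosome 2 with 9.30%. Chromosomes 4 and 7 had 65 regions each and together held 34.7% of the member bins, against 12.3% of the genome covered and 13.1% of the bins that were KOD in mES cells and forebrain. On these chromosomes the heart and forebrain shares were close, with 17.8% open in forebrain on chromosome 4 and 15.0% on chromosome 7. Chromosome 10 held 8 member bins.

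**Figure D4:**
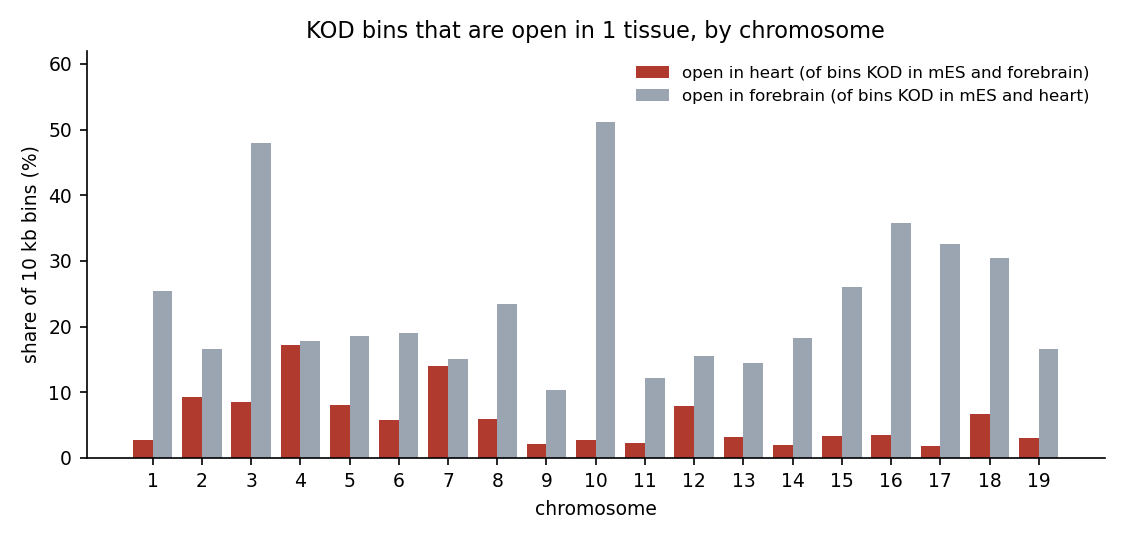
Share (%) of 10 kb bins on each chromosome that were open in 1 tissue: red, open in heart among bins KOD in mES cells and forebrain; grey, open in forebrain among bins KOD in mES cells and heart. The red bars reach 17.2% on chromosome 4 and 13.9% on chromosome 7 and are below the grey bar on all 19 chromosomes.

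Some of the regions lay near each other. With gaps of up to 500 kb joined, the regions formed 219 clusters, of which 110 were single regions and 17 had 5 or more. By the rule, regions can lie only in KODs of mES cells and forebrain. No other class was joined in this way, so whether the regions are more grouped than others was not tested. The 10 clusters with most bins held 28.8% of all member bins. The largest, on chromosome 4 from 123970001 to 125970000, had 12 regions with 820 kb of member bins. It lay around Grik3 and Rspo1, a secreted activator of Wnt signalling chosen after its values were seen. The next, also on chromosome 4, from 153670001 to 155440000, had 9 regions with 700 kb, among them that of Prdm16, that of Ski and that of Gabrd, a GABA receptor subunit. The third was the group on chromosome 2, with 560 kb in 5 regions.

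Member bins were frequent near chromosome ends. The distal 5 Mb held 271 of the 1349 member bins (20.1% ± 5.17), against 5.22% ± 1.55 of bins KOD in all 3 sources, 2.18% ± 0.807 of bins open only in forebrain and 3.96% ± 0.235 of all bins. The difference from bins KOD in all 3 was 14.9 percentage points (SE 5.44), but the share was higher on 9 of 19 chromosomes. Chromosome 4 had 89 and chromosome 2 had 56 of these 271 bins, and 8 chromosomes had none. Among the latter, chromosomes 3, 12, 13, 14, 17 and 18 had 0 distal bins KOD in mES cells and forebrain. No member bin was possible there. Without chromosomes 2 and 4 the share was 13.0%. Seen from the KODs, 18.6% ± 5.89 of the 1460 distal bins that were KOD in mES cells and forebrain were open in heart, against 5.03% ± 0.988 of the other 21418. Without chromosomes 2 and 4 the same shares were 11.2% and 4.44%. The remaining distal bins were uneven too. Chromosome 5 gave 37 of the 126 member bins left, from 44 distal bins KOD in mES cells and forebrain. Chromosomes 1, 8 and 15 had 0 of 35, 3 of 117 and 0 of 73.

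Seen in heart, most regions were the edge of an open domain. Of the 469 regions, 276 (58.8%) had the heart open state on 1 side, 100 (21.3%) on both sides and 93 (19.8%) on neither, so that the region was the whole heart open domain. Regions of the last kind include those of Chst15, of Maf, of Slc2a10 (20 kb) and of Timp4, an inhibitor of metalloproteinases found in the heart (80 kb; chosen after its values were seen). The Timp4 region lay wholly within Syn2, which was also assigned, with 54.2% of its body there. In the mirror class 19.5% of the regions were a whole forebrain open domain and 31.1% had the open state on both sides.

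Of the 938 bins that flank the regions, 50.7% were open, 36.6% KOD, 11.2% in no list and 1.49% LAD in heart. In mES cells 73.8% of flanks were KOD and 25.2% open, and in forebrain 65.8% were KOD and 32.7% open. Taken over the 3 sources, 35.4% of flanks were KOD in all 3, 23.9% were open in both tissues and KOD in mES cells, 17.5% were open in heart and mES cells and KOD in forebrain, and 7.04% were open in all 3. A LAD in any source flanked 1.92%. The Irx5, Gja4 and Zfp11 regions were whole mES KODs of 10, 30 and 30 kb that were open on both sides in mES cells, and the Flt1 and Tmod1 regions were whole forebrain KODs of 90 and 60 kb that were open on both sides in forebrain. In all, 35 regions were a whole mES KOD and 58 a whole forebrain KOD.

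By the rule, a region cannot be longer than any of the domains that hold it. The 374 heart open domains had a median of 130 kb, the 308 mES KODs 170 kb and the 333 forebrain KODs 130 kb, and the regions made up 14.1%, 15.3% and 14.6% of their bases. The medians over all domains were 100, 80 and 70 kb. A long domain has more bins that can be members, so no conclusion is drawn from the difference.

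Gene density did not separate the regions from the genome as a whole. They held 8.75 ± 1.08 protein-coding genes per Mb by midpoint, against 8.56 ± 0.580 over all bins. Stretches KOD in all 3 sources held 6.41 ± 1.04 and regions open only in forebrain 6.46 ± 0.567 genes per Mb. The difference from KOD in all 3 was 2.34 genes per Mb (SE 1.08), with a higher density on 13 of 19 chromosomes, and that from the mirror class was 2.29 (SE 0.940), higher on 11 of 19. With domains under 100 kb left out the difference from KOD in all 3 was 1.16 genes per Mb, and after trimming it was 1.62. No SE was computed for these settings, and 1.16 is close to the SE of the main value (1.08). Bins open in heart and forebrain but KOD in mES cells held 10.2 ± 0.877, and the difference of -1.43 (SE 1.22) was close to its error. Bins open in all 3 sources held 19.6 ± 0.786, and the regions were denser than these on 1 of 19 chromosomes.

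Long non-coding RNA (lncRNA) genes, a measure added after the densities of protein-coding genes were seen, were denser than over all bins. The regions held 153 of 12408 by midpoint (1.23%), or 11.3 ± 1.20 per Mb, against 5.13 ± 0.125 over all bins, 8.83 ± 0.238 in stretches KOD in all 3 and 8.73 ± 0.638 in the mirror class. The density was above that of all bins on 17 of 19 chromosomes, by 6.21 per Mb (SE 1.19), and above that of the mirror class on 13 of 19, by 2.62 per Mb (SE 1.35). Meg3 and Rian, both imprinted and maternally expressed, are the best known of them.

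**Figure D5:**
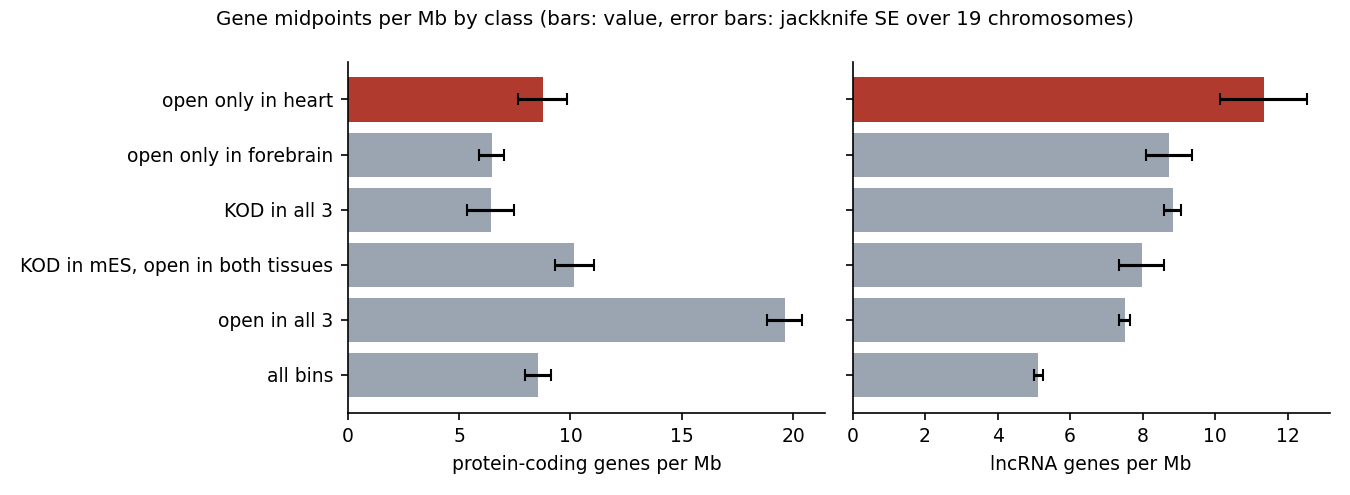
Midpoints of protein-coding genes (left) and lncRNA genes (right) per Mb in 6 classes of bins, with delete-one-chromosome jackknife SE over 19 chromosomes as error bars. Regions open only in heart (red) hold 8.75 protein-coding genes per Mb, near the 8.56 of all bins, and 11.3 lncRNA genes per Mb, above the 5.13 of all bins.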

How the data were processed

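CUT&RUN libraries for H3K9me2, Lamin B1 and IgG were made from mES cells, heart and forebrain. The submitters' processing notes name the mm10 genome, Bowtie2 2.5.0, cutadapt 4.2 and Trim Galore, and also deepTools and Picard. The calling of domains is not described in the sources used here. The authors deposited 9 lists of chromosome, start and end in 10 kb bins, pooled over replicates, with no score. A longer domain can come from deeper libraries or a looser threshold. Signal tracks were not analysed here.

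Bins were painted and joined with Python 3.11.15, numpy 2.4.6 and pandas 2.3.3, on code tested on simulated data, and figures drawn with matplotlib 3.10.9. Positions are counted from 1. Genes came from RefSeq (GRCm38.p6, the assembly of mm10) and promoters and miRNAs from its sequence tables. The gene table has no strand, so genes were assigned by the largest part of the body in place of the planned start site, which became an alternative. Of 597 list symbols 582 matched. Named genes were up to 6 assigned genes per symbol list, up to 4 genes of each of the 10 longest regions, the 10 genes with most bases in regions, and up to 5 genes per family with an assigned gene. Other genes lie outside this rule and were named after their values were seen, also where this is not marked. The members and lists were chosen with earlier results of these data known. Jackknife errors leave out 1 chromosome at a time. With 1 pooled list per source no test over samples was possible. Some items are not reported here.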

Additional observations from a re-analysis of the deposited data

How the results depend on the processing

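Of the 150 alternative values, 122 stayed within a 95% interval of the value or within 1.5 times of the count and 28 moved. The interval of a share was binomial over bins or flanks, as if neighbours were independent. That of the density difference used the jackknife SE. Most alternatives left out 1 of 19 chromosomes, the largest with 19.6% of member bins, so counts could hardly move. Trimming and leaving out short domains each moved the counts of bins, regions and genes and the share open in heart. Counts and shares cannot change sign. Only the gene density difference could, and it stayed positive in all its alternatives. The regions depend on domain edges. With 20 kb trimmed from both ends of every domain, 339 bins in 75 regions were left (median 30 kb, longest 310 kb), the share of mES and forebrain KOD bins open in heart was 2.01%, and 23 genes were assigned, all of them among the 107. With domains under 100 kb left out, 664 bins in 151 regions were left, the share was 3.49%, and 49 genes were assigned, 47 of them among the 107. Of the regions, 161 were 30 kb or longer. Flanks open in heart stayed at 50.7% and 51.3% under trimming and without short domains, and the gene density difference from stretches KOD in all 3 was 1.62 and 1.16 genes per Mb. With all annotated genes it was 5.87 per Mb. Any overlap gave 278 genes, and 5 contractile genes; start sites, an alternative added after the data were seen, gave 101 genes. Leaving out 1 chromosome at a time gave 1084 to 1341 bins, 404 to 464 regions, shares of 5.08% (without chromosome 4) to 6.28% (without chromosome 9), flanks open in heart of 49.5% to 52.1%, density differences of 1.81 to 2.83 genes per Mb and 89 to 107 genes. No paired analysis was possible because the deposited lists pool the replicates of each source. For the same reason leaving out replicates was not possible, and depth behind each domain is unknown.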
